A study of Mus musculus with 6 samples.

Results

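The genes described are 10 genes of the Hedgehog signalling pathway, chosen by name out of 24062 genes in the deposited tables and kept in 3 groups by role. Shh and Ihh are ligands, Cdon, Boc and Gas1 are co-receptors, and Ptch1, Hhip, Gli1, Gli2 and Gli3 are targets or effectors. RNA was sequenced from cells sorted from mouse embryonic dorsal pancreatic buds, in 6 libraries with 1 library per group. The groups were mutant and control mesenchyme at embryonic day 12.5 (E12.5), mutant and control epithelium at E12.5, and mutant and control epithelium at E14.5. The mutant embryos carried a genotype that includes mTmG+/-, Nkx2.5-Cre+/- and Pbx2+/-, and the controls are labelled mTmG. mTmG is a reporter that marks cells in red (Tomato), or in green (GFP) once Cre recombinase has acted in them, so both genotypes carry the reporter and the Cre is named in the mutants only. The labels do not say how Tomato and GFP cells map to mesenchyme and epithelium in the controls. A difference in sorting or in Cre therefore cannot be told apart from genotype in any mutant and control pair. Nkx2.5-Cre acts in cells that express Nkx2-5, a transcription factor of the splanchnic mesenchyme around the bud. Each library is a pool of sorted fractions, so embryo-to-embryo variation was not measured and no comparison below has a replicate check.

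In Hedgehog signalling a secreted ligand binds the receptor Ptch1 together with a co-receptor, Ptch1 then releases its block on the membrane protein Smo, and the zinc finger factors Gli1, Gli2 and Gli3 carry the signal to target genes. Gli1 acts as an activator, Gli2 mainly as an activator and Gli3 largely as a repressor when ligand is absent. Ptch1, Hhip and Gli1 are themselves induced by the signal, and Ptch1 and Hhip bind ligand and limit it. In the early mouse embryo the pancreatic epithelium is known for keeping Shh and Ihh low while the neighbouring stomach and gut epithelium makes both.

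Values are CPM, read counts on genes scaled to a common library total, after TMM scaling, which evens out differences in library composition. Totals on genes were 14032569 to 20276045 per library. A gene was counted as measured in a comparison at 5 CPM or more in 1 of its 2 libraries, and as called higher or lower when the ratio was 2-fold or more and its exact 95% interval left out 1. Intervals cover counting error only. Between mutant and control mesenchyme, genes at 10 to 50 CPM had log2 ratios with an SD of 0.50, against 0.11 from counting alone, and the corresponding SDs were 0.48 and 0.11 in E12.5 epithelium and 0.79 and 0.12 in E14.5 epithelium. An interval that leaves out 1 is therefore a statement about the 2 libraries, not about the genotypes.

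The labelled fractions were checked against marker genes. The 18 general epithelial genes summed to 107 and 130 CPM in mutant and control mesenchyme and to between 3417 and 7341 CPM in the epithelial libraries. The 18 general mesenchymal genes summed to 8771 CPM in mutant and 9908 CPM in control mesenchyme, but also to 5100 CPM in mutant and 4575 CPM in control epithelium at E12.5, and to 10415 CPM in mutant and 5134 CPM in control epithelium at E14.5. The epithelial libraries thus held mesenchymal RNA throughout. The general mesenchymal sum was highest among them in the E14.5 epithelium labelled mutant, and the pancreatic and splanchnic sum in the E12.5 epithelium labelled mutant, at 677 CPM against 541 CPM in the E14.5 one. Pbx2 stood at 56.0 CPM in mutant and 89.9 CPM in control mesenchyme, at 49.7 CPM in mutant and 54.5 CPM in control epithelium at E12.5, and at 47.3 CPM in mutant and 34.0 CPM in control epithelium at E14.5. It was not lower in the E14.5 epithelium labelled mutant, so directions in the epithelium rest on the label, and both epithelial libraries are called labelled mutant.

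Both ligands were read at low levels. Shh, which signals from foregut and other endoderm, had 51 reads (3.35 CPM) in the E12.5 epithelium labelled mutant and none in control epithelium, where the floor of 3 reads used for bounds would be 0.141 CPM. At E14.5 it had 33 reads (2.37 CPM) in the epithelium labelled mutant and none in control epithelium, with a floor of 0.205 CPM. Mutant and control mesenchyme held 1 read each. Shh was thus read in both epithelial libraries labelled mutant and in neither epithelial control.

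Against that floor of 3 reads, Shh was at least 23.7-fold higher in the epithelium labelled mutant at E12.5 and at least 11.5-fold higher at E14.5. Each fold given as at least, here and below, leaves out the counting error of the library with reads. Such a fold is therefore not a 95% limit, unlike the interval bounds given for other ratios. Ihh, the ligand of gut epithelium and growing cartilage, had 10 reads (0.657 CPM) in the E12.5 epithelium labelled mutant and none in control epithelium, at least 4.65-fold higher. At E14.5 Ihh had 39 reads (2.80 CPM) in the epithelium labelled mutant and none in control epithelium, at least 13.6-fold higher. Both ligands stayed under 5 CPM in all 6 libraries, so neither was counted as measured or called. Ihh had no read in mutant mesenchyme and 3 reads in control mesenchyme. Shh lies on mm10 chromosome 5 from 28456815 to 28467256 on the minus strand and Ihh on chromosome 1 from 74945315 to 74951672 on the minus strand.

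Markers of gut and stomach epithelium, where both ligands are normally made, were counted beside them. The 14 markers summed to 5.85 CPM in the E12.5 epithelium labelled mutant and 4.19 CPM in control epithelium, and to 11.4 CPM in the E14.5 epithelium labelled mutant and 13.9 CPM in control epithelium. Cdx2, the intestinal homeobox factor, had 8 and 11 reads in the E12.5 and E14.5 epithelium labelled mutant and none in either control. Its relative Cdx1 had 63 reads (4.52 CPM) in the E14.5 epithelium labelled mutant and 8 reads (0.548 CPM) in control epithelium, but none in the E12.5 epithelium labelled mutant and 5 in control epithelium. Sox2, also on the list, was higher in the epithelium labelled mutant at both stages. It had 54 reads there and 32 in control epithelium at E12.5, and 28 and 14 reads at E14.5. At E12.5 Sox2 made up 3.55 of the 5.85 CPM in the epithelium labelled mutant and 1.51 of the 4.19 CPM in control epithelium. Other genes of the list went the opposite way at E14.5, with 4 reads of the stomach claudin Cldn18 in the epithelium labelled mutant and 38 in control epithelium. In the E14.5 epithelium labelled mutant Tff2 had 3, Tff3 18 and Lgals2 31 reads, against 20, 37 and 75 reads of the same genes in control epithelium. These genes were chosen after their values were seen. The summed level was thus higher in the library labelled mutant at E12.5 and lower in it at E14.5, while Cdx2 was read in the same 2 epithelial libraries as the ligands, and the part of gut cells in the ligand reads was not tested. Of the notochord markers, Noto had no read in any library. T had no read in the E12.5 epithelium labelled mutant and 1 in control epithelium, and 3 and 7 reads at E14.5. Foxa2 had 1214 reads in the E12.5 epithelium labelled mutant and 2184 in control epithelium, and 1253 and 2198 reads at E14.5. In control mesenchyme T had 2 reads and Foxa2 none, and in mutant mesenchyme T had none and Foxa2 1. Foxa2 thus went with the epithelial fraction in both genotypes, as the general epithelial sum did. The part of notochord cells in the ligand reads was not tested. 2 non-coding genes overlap Shh on the opposite strand, and whether counting used strand is not given in the sources used here.

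**Figure D1:**
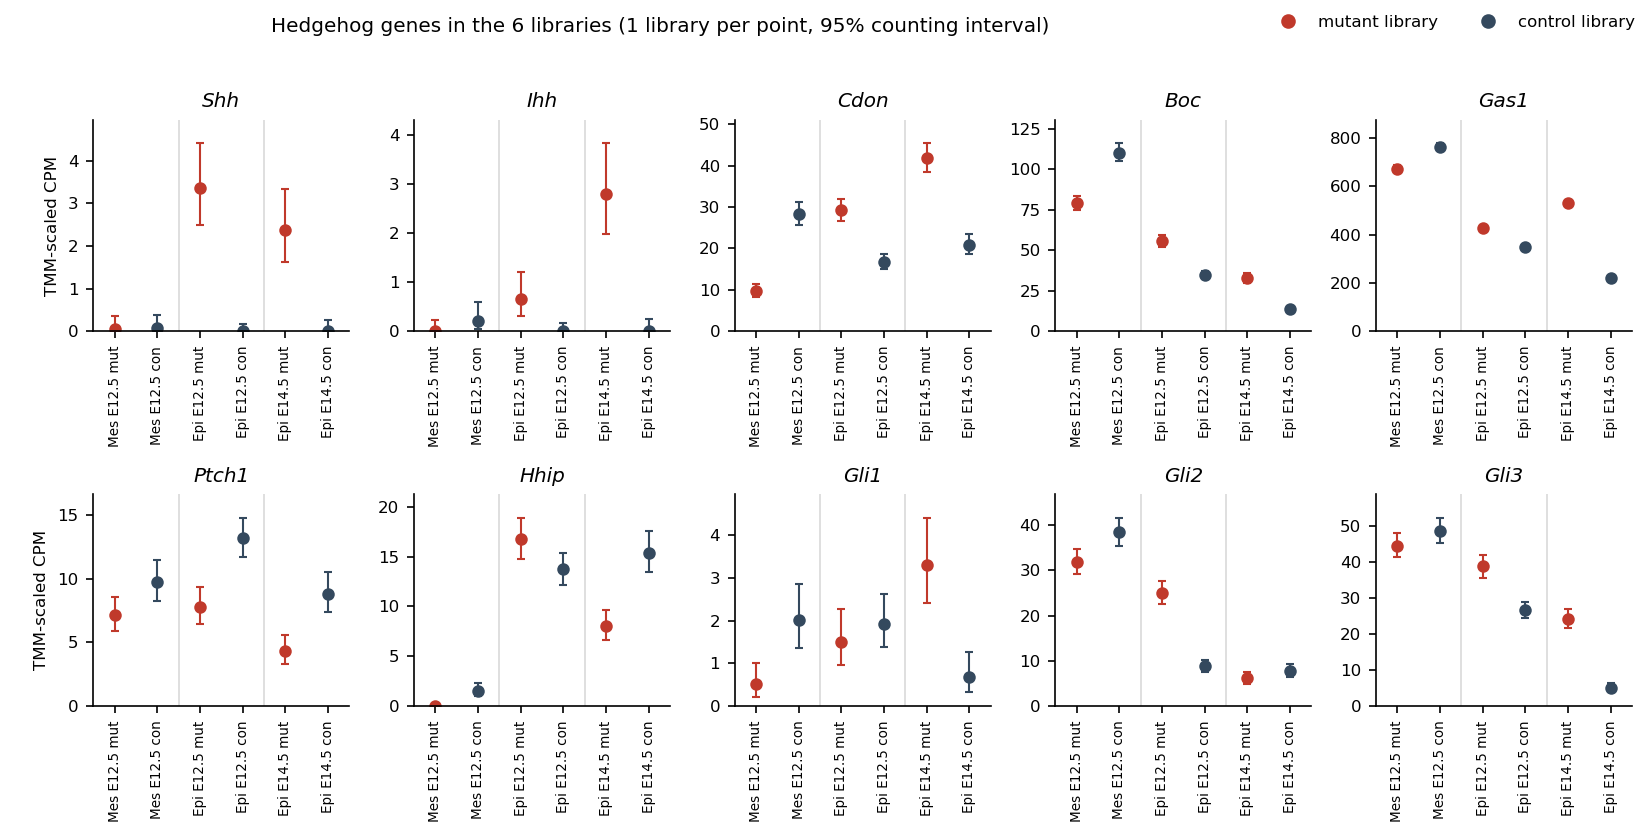
Each panel plots the TMM-scaled CPM (linear axis from 0) of 1 Hedgehog gene in the 6 libraries, mutant in red and control in dark blue, with 1 library per point and 95% counting intervals. Shh and Ihh rise above 0.5 CPM only in the epithelial libraries labelled mutant, Hhip is low in both mesenchyme libraries, and Gas1 lies between 219 and 764 CPM.

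Of the co-receptors, Gas1 and Boc stood above all the other Hedgehog genes per length of transcript. Gas1, a membrane-anchored protein that presents ligand to Ptch1, had the highest level per kilobase of exon in all 6 libraries, from 74.1 to 258 CPM per kb. Boc, an immunoglobulin-family co-receptor, was second in all 6, from 3.06 to 24.8 CPM per kb. In the E14.5 control epithelium the interval of Boc overlapped that of Cdon (2.78 CPM per kb), and in the other libraries it stood apart from the next gene. On the same scale the third place was Gli3 in the 4 libraries from E12.5, its interval overlapping that of Gli2 in mutant and control mesenchyme, and Cdon in the 2 libraries from E14.5.

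In E12.5 mesenchyme all 6 measured Hedgehog genes had ratios below 1 in the mutant, and 1 of them, Cdon, was called lower. Among 11188 measured genes 5.46% were called, 1.96% higher and 3.50% lower. The median log2 ratio of the 6 Hedgehog genes was -0.36, against -0.01 over all measured genes. The 17 measured general mesenchymal genes had a median of -0.25, also below 0. In bulk RNA, fewer cells of a type and less RNA per cell cannot be told apart.

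Cdon, the immunoglobulin-family partner of Boc, lies on mm10 chromosome 9 from 35421128 to 35507652 on the plus strand. Cdon had 150 reads (9.65 CPM) in mutant mesenchyme and 422 reads (28.3 CPM) in control mesenchyme, which was 2.93-fold lower (interval 2.43 to 3.56, log2 ratio -1.55). Only 146 measured genes, 1.30% of all, were as low or lower by ratio. Boc stood at 78.9 CPM in mutant and 110 CPM in control mesenchyme, a ratio 1.40-fold below 1 (1.30 to 1.5). Gas1 stood at 673 CPM in mutant and 764 CPM in control mesenchyme, 1.14-fold below (1.11 to 1.17). The 3 co-receptors thus differed in the size of their ratio, and Cdon alone reached the 2-fold threshold. Mesothelial markers, 3 of 7 called lower, summed to 118 CPM in mutant and 192 CPM in control mesenchyme, and smooth muscle and pericyte markers, 2 of 6 called lower, to 298 and 393 CPM in mutant and control mesenchyme, and their part in the Cdon ratio was not tested.

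The targets in E12.5 mesenchyme were read at lower depth. Ptch1 stood at 7.14 CPM in mutant and 9.79 CPM in control mesenchyme (1.37-fold below, 1.06 to 1.77). Hhip, the decoy that binds ligand at the cell surface, had no read in mutant and 23 reads (1.54 CPM) in control mesenchyme, at least 8.0-fold lower. Gli1, the target gene most often read as a measure of pathway activity, had 8 reads (0.514 CPM) in mutant and 30 reads (2.01 CPM) in control mesenchyme, with a ratio 3.91-fold below 1 (1.75 to 9.87). Hhip and Gli1 were both under 5 CPM and so were not called. Gli2 stood at 31.9 CPM in mutant and 38.4 CPM in control mesenchyme (1.20-fold below, 1.06 to 1.36), and Gli3 at 44.6 and 48.6 CPM in mutant and control mesenchyme, where the interval spanned 1 (1.09-fold below, 0.982 to 1.21). The 3 genes known to be induced by the signal thus lay further below 1 than Gli2 and Gli3, on few reads and with overlapping intervals for Ptch1 and Gli2. Other genes reported as Hedgehog responsive in mouse gut or limb mesenchyme had a median log2 ratio of 0.05 in this pair. Of the 8 measured, 5 were above 0 and 3 below, and none was called.

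In E12.5 epithelium 6 of 7 measured Hedgehog genes had ratios above 1 in the library labelled mutant, and 1, Gli2, was called higher. Among 11991 measured genes 5.0% were called, 1.79% higher and 3.21% lower. The median of the 7 was 0.55, against 0.00 over all measured genes and 0.27 over 17 general mesenchymal genes. Gli2 had 380 reads (25.0 CPM) in the epithelium labelled mutant and 187 reads (8.81 CPM) in control epithelium, 2.83-fold higher (2.37 to 3.40), a ratio that 79 measured genes (0.659%) reached. Relative to the general mesenchymal genes its log2 ratio was 1.23 in place of 1.5, still past the threshold. Median log2 ratios were larger for the pancreatic and splanchnic mesenchyme list (0.64) and the smooth muscle and pericyte list (1.24), and Gli2 was not scaled to these. Splanchnic mesenchyme markers summed to 677 CPM in the epithelium labelled mutant and 393 CPM in control epithelium, with 3 of 8 called higher, and smooth muscle and pericyte markers to 333 and 156 CPM in the epithelium labelled mutant and control epithelium, with 4 of 8 called higher. Their part in the Gli2 ratio was not tested.

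The co-receptors in E12.5 epithelium were each above 1 but short of 2-fold. Cdon stood at 29.2 CPM in the epithelium labelled mutant and 16.8 CPM in control epithelium (1.73-fold above, 1.51 to 2.0). Boc stood at 55.5 CPM in the epithelium labelled mutant and 34.4 CPM in control epithelium (1.61-fold above, 1.46 to 1.78). Gas1 stood at 429 CPM in the epithelium labelled mutant and 348 CPM in control epithelium (1.23-fold above, 1.19 to 1.27). All 3 co-receptors were thus above 1 in the E12.5 epithelium labelled mutant and below 1 in mutant mesenchyme, with intervals that left out 1. The general mesenchymal genes had the same directions, with median log2 ratios of 0.27 in epithelium and -0.25 in mesenchyme. The pancreatic and splanchnic mesenchyme list had medians of 0.64 and 0.13. The part of the cell mix in the co-receptor ratios was not tested.

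Gli3 stood at 38.8 CPM in the E12.5 epithelium labelled mutant and 26.6 CPM in control epithelium (1.46-fold above, 1.30 to 1.64). Hhip stood at 16.8 CPM in the epithelium labelled mutant and 13.8 CPM in control epithelium (1.22-fold above, 1.03 to 1.45). Ptch1 went the other way, at 7.82 CPM in the epithelium labelled mutant and 13.2 CPM in control epithelium (1.69-fold below, 1.36 to 2.11). Gli1 had 23 reads in the epithelium labelled mutant and 41 in control epithelium, with an interval across 1 (1.28-fold below, 0.749 to 2.23). None of these 4 was called, and the 3 induced targets had no common direction. The table of the E12.5 control epithelium carries another date than the other 5 tables, so a difference in its handling cannot be told apart from the group in any comparison that uses it.

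**Figure D2:**
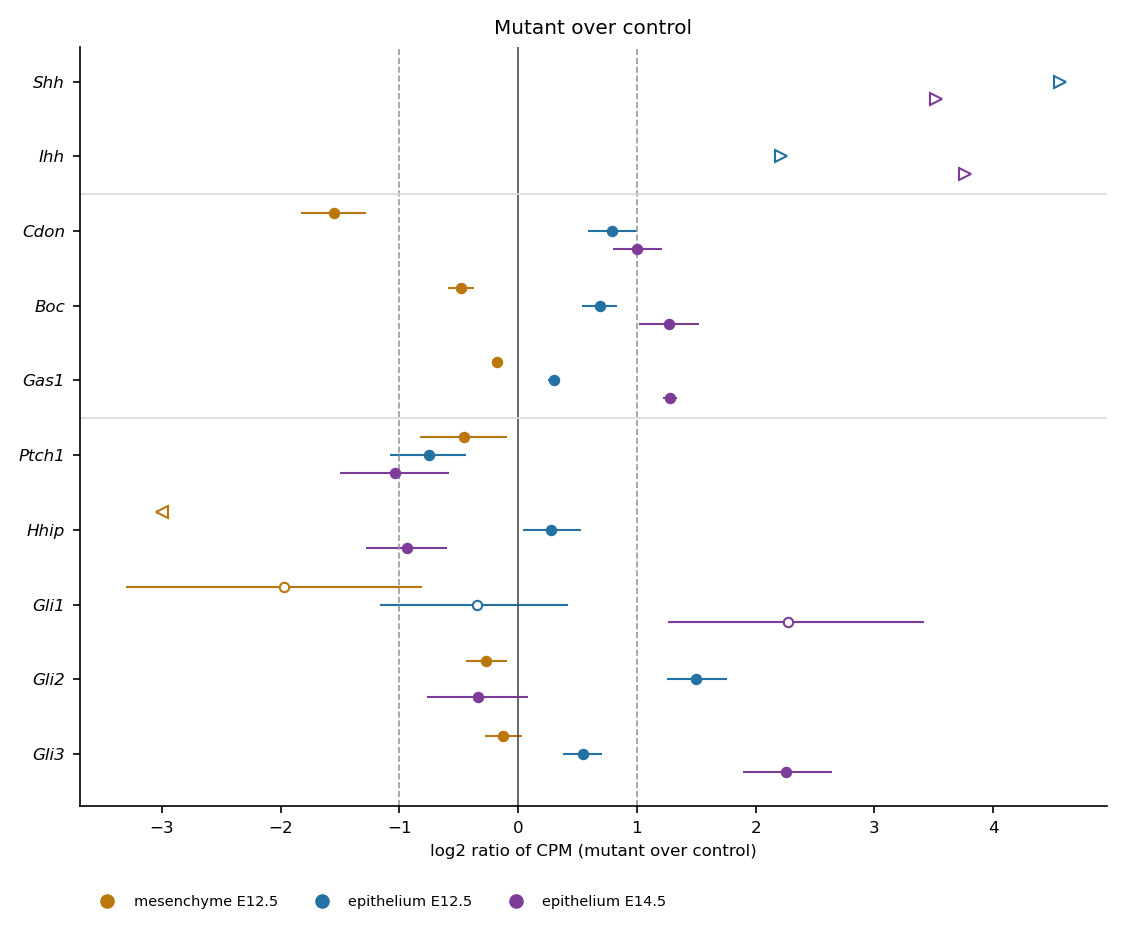
The log2 ratio of mutant over control CPM is drawn for each Hedgehog gene in mesenchyme E12.5, epithelium E12.5 and epithelium E14.5, with 95% counting intervals, dashed lines at 2-fold, open symbols for genes under 5 CPM and triangles for bounds against a library with no read. Cdon lies at -1.55 in mesenchyme and at 0.79 and 1.0 in epithelium, while Ptch1 lies below 0 in all 3.

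At E14.5 the epithelium labelled mutant had 4 of 7 measured Hedgehog genes called higher and 1 called lower. The background was also higher at this stage, with 16.0% of 12145 measured genes called, 9.64% higher and 6.40% lower. The median of the 7 was 1.0, against -0.03 over all measured genes. Over the 17 measured general mesenchymal genes the median was 1.26, with 13 called higher, and the 17 general epithelial genes a median of -0.96, with 8 called lower. The co-receptors therefore moved by about as much as general mesenchymal genes did in the same pair of libraries. Medians were larger for splanchnic mesenchyme (2.33), smooth muscle and pericytes (3.02), skeletal muscle (2.74), erythroid cells (2.69) and neural crest, glia and neurons (1.40). They were smaller for endothelium (0.26), leukocytes (0.71) and mesothelium (0.56). The part of these cell types in the co-receptor ratios was not tested.

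All 3 co-receptors were called higher at E14.5. Cdon had 583 reads (41.9 CPM) in the epithelium labelled mutant and 305 reads (20.9 CPM) in control epithelium, 2.0-fold higher (1.74 to 2.31). Boc had 457 reads (32.8 CPM) in the epithelium labelled mutant and 199 reads (13.6 CPM) in control epithelium, 2.41-fold higher (2.03 to 2.86). Gas1 stood at 532 CPM in the epithelium labelled mutant and 219 CPM in control epithelium, 2.43-fold higher (2.33 to 2.53). Relative to the general mesenchymal genes the log2 ratios were -0.26 for Cdon, 0.01 for Boc and 0.02 for Gas1, so none of the 3 was called on that scale and Cdon changed sign. Cdon sat at the threshold and was also not called with DESeq2 size factors (log2 ratio 0.97).

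The Gli factors separated at E14.5. Gli3 lies on mm10 chromosome 13 from 15463235 to 15730026 on the plus strand and Gli2 on chromosome 1 from 118834132 to 119053619 on the minus strand. Gli3 had 337 reads (24.2 CPM) in the epithelium labelled mutant and 74 reads (5.07 CPM) in control epithelium, 4.77-fold higher (3.70 to 6.23), a ratio that 171 measured genes (1.41%) reached. Gli2 had 85 reads (6.10 CPM) in the epithelium labelled mutant and 113 reads (7.74 CPM) in control epithelium, with an interval across 1 (1.27-fold below, 0.949 to 1.70). Gli1 had 46 reads (3.30 CPM) in the epithelium labelled mutant and 10 reads (0.685 CPM) in control epithelium, 4.82-fold above (2.40 to 10.7) but under 5 CPM. Relative to the general mesenchymal genes the log2 ratio of Gli3 was 0.99 in place of 2.26, just short of the threshold, and that of Gli2 was -1.61, past it. The pancreatic and splanchnic mesenchyme list had a median of 2.33 in this pair, and the smooth muscle and pericyte list 3.02. Gli3 was not scaled to these, and the part of the cell mix in the Gli ratios was not tested.

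The ligand-binding targets were less abundant in the E14.5 epithelium labelled mutant. Ptch1 had 60 reads (4.31 CPM) in the epithelium labelled mutant and 129 reads (8.84 CPM) in control epithelium, 2.05-fold lower (1.5 to 2.83). Hhip had 112 reads (8.04 CPM) in the epithelium labelled mutant and 225 reads (15.4 CPM) in control epithelium, a ratio 1.92-fold below 1 (1.52 to 2.43) that was not called. Relative to the general epithelial genes the log2 ratios were -0.07 for Ptch1 and 0.03 for Hhip, and with plain CPM that of Ptch1 was -0.96, short of the threshold. The 2 ratios were thus close in size to that of the general epithelial list, and the part of the cell mix in them was not tested. Gli1 overlaps the leukocyte gene Arhgap9 on the opposite strand, which had 156 reads in the E14.5 epithelium labelled mutant and 86 in control epithelium, 40 and 22 reads in mutant and control mesenchyme, and 173 and 240 reads in the E12.5 epithelium labelled mutant and control epithelium. Its part in the Gli1 reads was not tested.

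The fractions were compared within each genotype at E12.5. In controls the median log2 ratio of mesenchyme over epithelium for the 7 measured Hedgehog genes was 0.87, against 0.03 over all measured genes, with 3 called higher and 1 lower. Among 12066 measured genes 20.6% were called, 7.0% higher and 13.6% lower. Boc stood at 110 CPM in control mesenchyme and 34.4 CPM in control epithelium, 3.20-fold higher (2.93 to 3.50). Gas1 was 2.2-fold higher (2.13 to 2.26) and Gli2, at 38.4 CPM in mesenchyme and 8.81 CPM in epithelium, 4.36-fold higher (3.69 to 5.17). Hhip was the one gene called lower, at 1.54 CPM in mesenchyme and 13.8 CPM in epithelium, 8.92-fold lower (5.83 to 14.3). The called genes thus split by fraction, with Boc, Gas1 and Gli2 on the mesenchymal side and Hhip on the epithelial side. Endothelial markers summed to 9.79 CPM in control mesenchyme and 219 CPM in control epithelium, and leukocyte markers to 61.0 and 387 CPM. Neural crest, glial and neuronal markers summed to 117 and 195 CPM in the same order. Smooth muscle and pericyte markers, at 393 and 156 CPM, and erythroid markers, at 65.7 and 0.706 CPM, went the other way. The part of these cell types in the fraction ratios was not tested. Gli3 was 1.83-fold above (1.64 to 2.05), Cdon 1.68-fold above and Ptch1 1.35-fold below in mesenchyme (1.10 to 1.66), and Gli1 had nearly the same level in control mesenchyme and control epithelium (2.01 and 1.93 CPM).

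In mutants the same comparison called none of 7 Hedgehog genes higher and 2 lower, against 18.3% of 11956 measured genes called, 5.42% higher and 12.9% lower. Cdon stood at 9.65 CPM in mutant mesenchyme and 29.2 CPM in the epithelium labelled mutant, 3.02-fold lower (2.51 to 3.66). Hhip had no read in mutant mesenchyme and 255 reads in the epithelium labelled mutant, at least 86.8-fold lower. Boc (1.42-fold above in mesenchyme), Gas1 (1.57-fold), Gli2 (1.28-fold) and Gli3 (1.15-fold) were on the mesenchymal side but short of 2-fold. The interval of Ptch1 spanned 1 (1.1-fold below in mesenchyme, 0.839 to 1.43). The 3 genes under 5 CPM were also lower in mesenchyme by reads. Shh had 1 read in mutant mesenchyme and 51 in the epithelium labelled mutant (52.1-fold below, 8.94 to 2098), Ihh had none in mutant mesenchyme and 10 in the epithelium labelled mutant (at least 3.41-fold lower), and Gli1 had 8 in mutant mesenchyme and 23 in the epithelium labelled mutant (2.94-fold below, 1.27 to 7.60). In control mesenchyme and control epithelium at E12.5 neither ligand had more than 3 reads, so no fold is given for them. The median log2 ratio was 0.20 over the 7 genes and 0.03 over all measured genes. General mesenchymal genes were also less separated in the mutants, with a median of 0.70 and 6 of 17 called higher, against 1.22 and 12 of 17 in the controls.

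**Figure D3:**
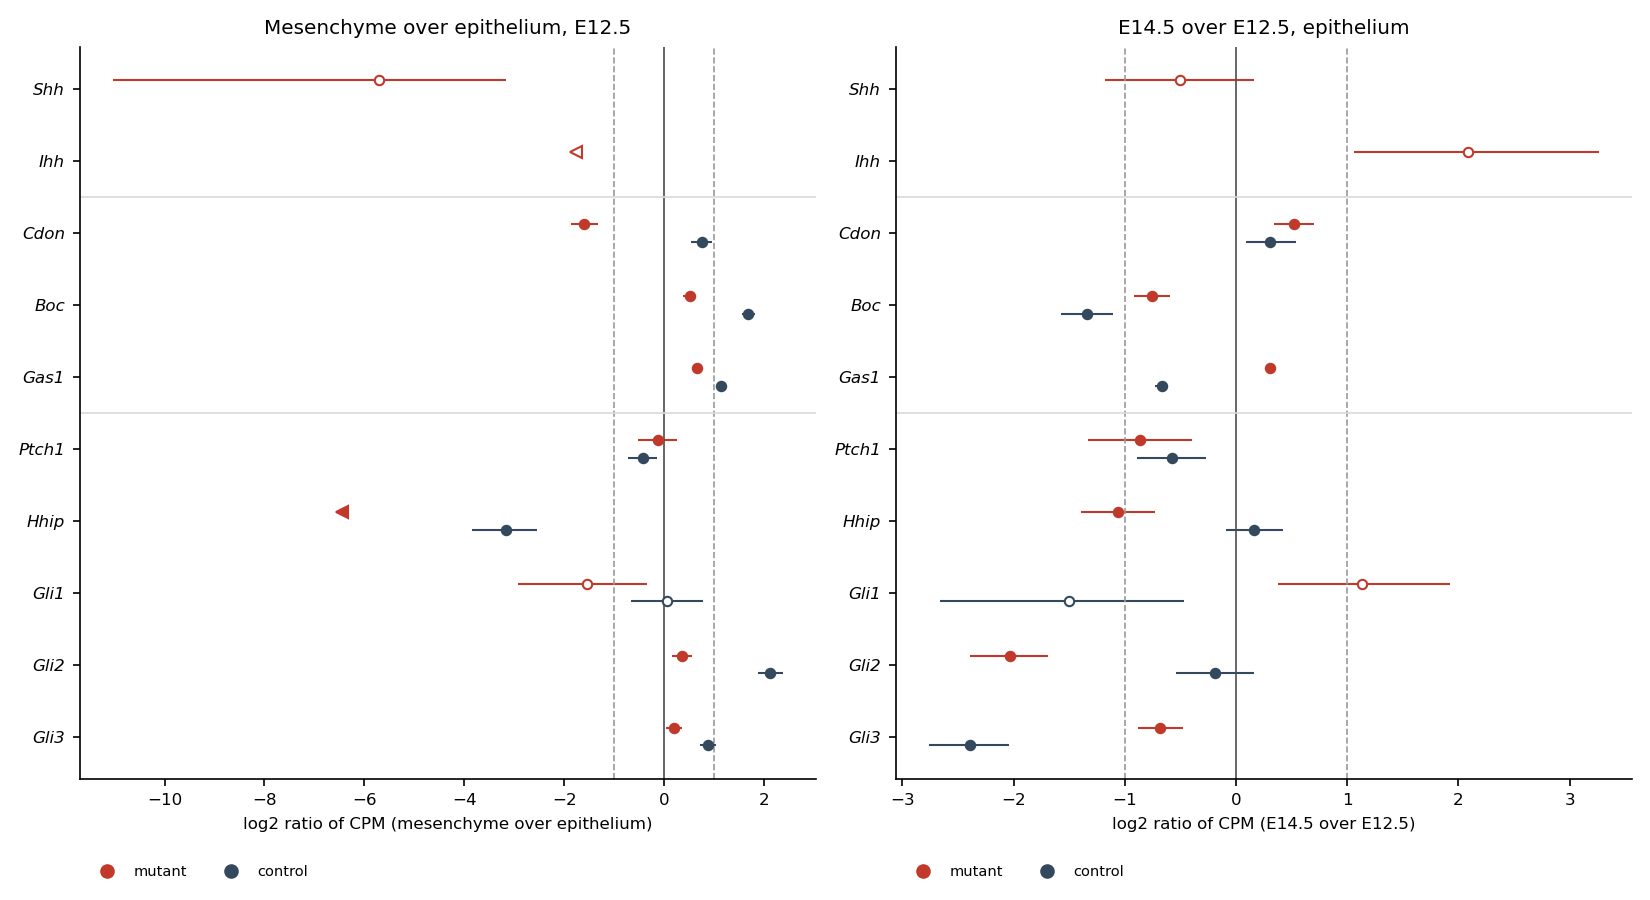
The left panel draws the log2 ratio of mesenchyme over epithelium CPM at E12.5 and the right panel that of E14.5 over E12.5 epithelium, for mutant (red) and control (dark blue) libraries, with 95% counting intervals, open symbols under 5 CPM and triangles for bounds. Cdon lies at -1.60 in mutants and 0.75 in controls on the left, and Gli2 and Gli3 exchange places between genotypes on the right.

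Stage was compared in the epithelium. In the libraries labelled mutant, 2 of 7 Hedgehog genes were called lower at E14.5 than at E12.5 and none higher, against 12.2% of 12167 measured genes, 6.27% higher and 5.89% lower. Gli2 stood at 6.10 CPM at E14.5 and 25.0 CPM at E12.5, 4.09-fold lower (3.23 to 5.24), and Hhip at 8.04 and 16.8 CPM at E14.5 and E12.5, 2.08-fold lower (1.66 to 2.63). Ihh had 39 reads at E14.5 and 10 at E12.5 in the epithelium labelled mutant (4.26-fold above, 2.09 to 9.58), while Shh had 33 at E14.5 and 51 at E12.5, with an interval across 1 (1.41-fold below, 0.895 to 2.26). Shh had more reads than Ihh at E12.5, and at E14.5 the intervals of the 2 ligands overlapped. Among the genes not called, Cdon (1.44-fold, 1.27 to 1.63) and Gas1 (1.24-fold, 1.20 to 1.28) were above 1 at E14.5. Boc (1.69-fold, 1.51 to 1.90), Ptch1 (1.81-fold, 1.32 to 2.52) and Gli3 (1.60-fold, 1.40 to 1.84) were below 1. Gli1 had 46 reads at E14.5 and 23 at E12.5 (2.19-fold above, 1.30 to 3.78) but was under 5 CPM.

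In control epithelium 2 of 7 were called lower at E14.5 and none higher, against 17.7% of 12136 measured genes, 6.53% higher and 11.2% lower. Gli3 stood at 5.07 CPM at E14.5 and 26.6 CPM at E12.5, 5.24-fold lower (4.11 to 6.77), and Boc at 13.6 and 34.4 CPM at E14.5 and E12.5, 2.53-fold lower (2.16 to 2.97). Gli2 had nearly the same level at both stages in control epithelium (7.74 CPM at E14.5, 8.81 CPM at E12.5), and so had Hhip (15.4 CPM at E14.5, 13.8 CPM at E12.5), both with intervals across 1. Cdon was 1.24-fold above 1 at E14.5 (1.06 to 1.45), while Gas1 (1.59-fold, 1.52 to 1.65) and Ptch1 (1.49-fold, 1.21 to 1.85) were below it, none of them called. Gli1 had 10 reads at E14.5 and 41 at E12.5 (2.82-fold below, 1.39 to 6.31), under 5 CPM, and the ligands had no read at either stage. The 2 called genes were thus Gli2 and Hhip in the libraries labelled mutant and Gli3 and Boc in the controls, and the difference between genotypes was not tested. The pancreatic and splanchnic mesenchyme markers summed to 541 CPM at E14.5 and 677 CPM at E12.5 in the libraries labelled mutant, and to 212 CPM at E14.5 and 393 CPM at E12.5 in the controls. The sum of the general mesenchymal genes went the other way. It was 10415 CPM at E14.5 and 5100 CPM at E12.5 in the libraries labelled mutant, and 5134 CPM at E14.5 and 4575 CPM at E12.5 in the controls. Gene by gene the list had no common direction in the controls, with a median log2 ratio of -0.10, 8 genes above 0 and 9 below. In the libraries labelled mutant the median was 0.69, with 12 above 0 and 5 below. Smooth muscle and pericyte markers summed to 743 CPM at E14.5 and 333 CPM at E12.5 in the libraries labelled mutant, and to 144 CPM at E14.5 and 156 CPM at E12.5 in the controls. The part of these cell types in the stage ratios was not tested.

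Across the 6 libraries the Hedgehog genes fell into different orders. Boc, Gas1, Gli2 and Gli3 were highest in control mesenchyme and second in mutant mesenchyme. For Gli3 the interval of mutant mesenchyme overlapped those of control mesenchyme and of the E12.5 epithelium labelled mutant. Ptch1 was highest in the E12.5 control epithelium, and its next 4 libraries had overlapping intervals from 7.14 to 9.79 CPM. Cdon was highest in the E14.5 epithelium labelled mutant and lowest in mutant mesenchyme, an order that no other co-receptor shared. As a description over 6 libraries that share cell sources, Pearson's r of log2(CPM + 1) was 0.94 between Boc and Gli3, 0.92 between Boc and Gas1 and 0.88 between Gas1 and Gli3, but -0.13 between Cdon and Boc and 0.01 between Cdon and Gas1. Among 12784 genes compared in the same way, the nearest were Gja4 for Cdon (0.985), Zcchc3 for Boc (0.998), Tgfbi for Gas1 (0.999), Ganab for Ptch1 (0.995), Tesc for Hhip (0.995), B3gnt8 for Gli2 (0.997) and Rasa4 for Gli3 (0.997).

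Other genes of the pathway were counted in lists of 52 genes present in the tables. In E12.5 mesenchyme 1 of 45 measured was called in the mutant, against 5.46% of all measured genes. It was Scube2, a carrier that helps release lipid-bearing ligand, at 0.707 CPM in mutant and 5.30 CPM in control mesenchyme (7.49-fold lower, 3.97 to 15.6). In E12.5 epithelium 3 of 44 were called, all higher in the library labelled mutant, against 5.0% of all measured genes called and 1.79% called higher. These were the kinase Stk36 (2.53-fold), the forkhead factor Foxf1 (2.61-fold, at 45.1 CPM in the epithelium labelled mutant and 17.2 CPM in control) and Prdm1 (9.11-fold). Smo, the signal transducer that Ptch1 holds in check, was not called in any genotype comparison, with 218 and 255 CPM in mutant and control mesenchyme, 185 and 187 CPM in the E12.5 epithelium labelled mutant and control, and 144 and 138 CPM in the E14.5 epithelium labelled mutant and control.

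At E14.5, 8 of 45 measured were called higher in the epithelium labelled mutant and 2 lower. Over all measured genes 9.64% were called higher and 6.40% lower (16.0% in either direction). Genes reported as Hedgehog responsive in mouse gut or limb mesenchyme made up 6 of the 8, among 9 measured, with a list median of 1.51. Foxf1 stood at 65.6 CPM in the epithelium labelled mutant and 4.25 CPM in control epithelium, 15.4-fold higher (11.9 to 20.3). Foxf2 and Foxl1, its relatives in gut mesenchyme, had 94 and 77 reads in the epithelium labelled mutant and none in control epithelium, at least 32.9-fold and at least 26.9-fold higher. The ligand carrier Scube3 was 4.33-fold higher (2.91 to 6.63). Smooth muscle and pericyte markers, 6 of 8 called higher, summed to 743 CPM in the epithelium labelled mutant and 144 CPM in control epithelium, and splanchnic mesenchyme markers, 8 of 9 called higher, to 541 and 212 CPM in the epithelium labelled mutant and control epithelium. Foxf1 is itself on the splanchnic list, and the part of these cell types in the responsive genes was not tested.

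**Figure D4:**
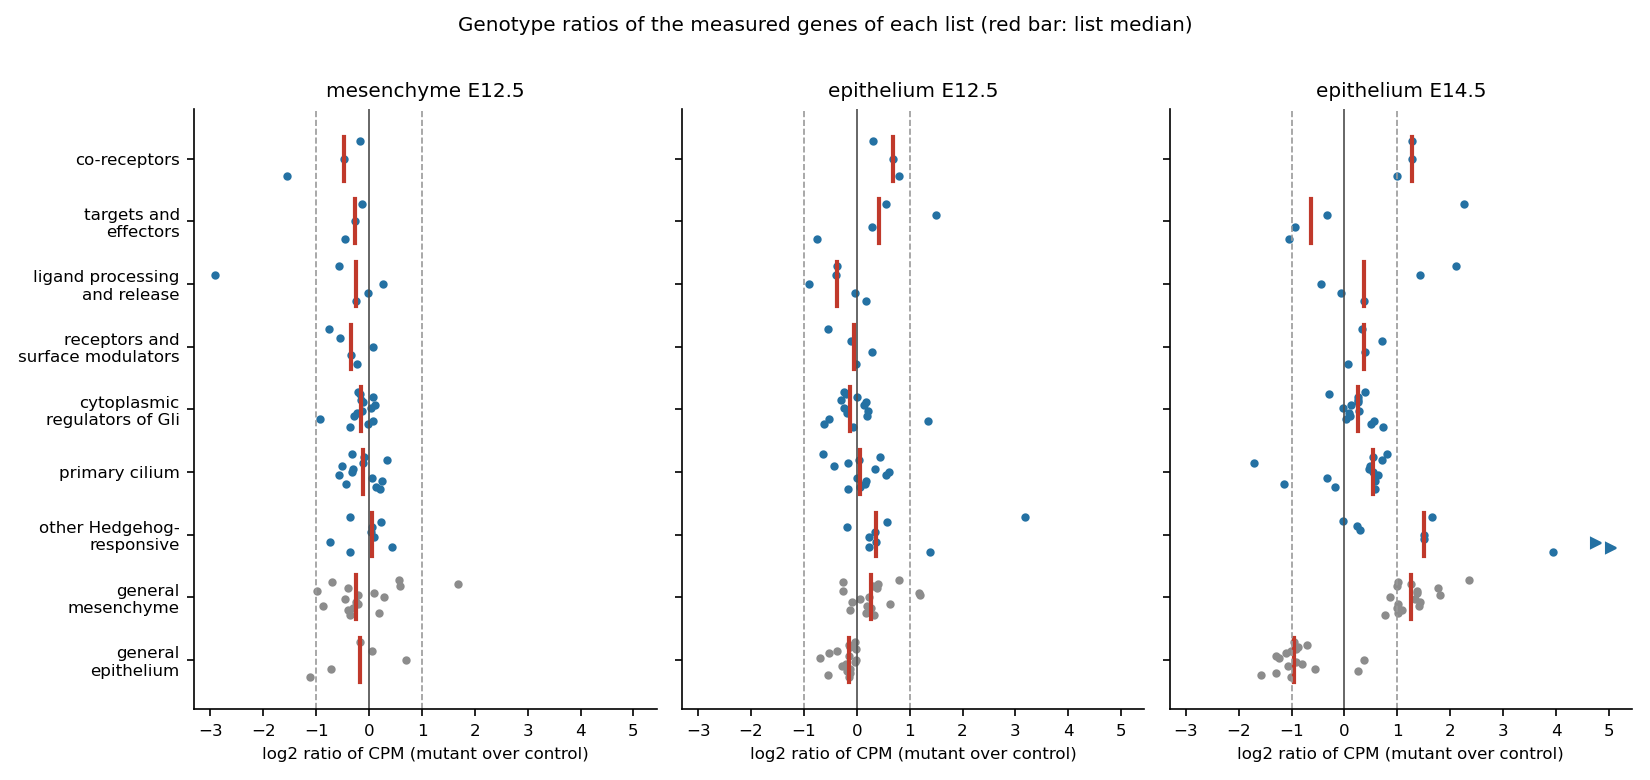
Each point is the log2 ratio of mutant over control CPM of 1 measured gene, by list (rows) and comparison (panels), with the list median as a red bar, dashed lines at 2-fold and triangles for bounds against a library with no read. In the E14.5 panel the co-receptors (median 1.27) and the other Hedgehog-responsive genes (1.51) lie on the side of general mesenchyme (1.26), while the 4 measured targets and effectors go both ways, with Gli3 at 2.26 and the other 3 below 0.

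In the stage comparison of control epithelium 13 of 43 measured pathway genes were called lower at E14.5 and none higher, against 11.2% of all measured genes called lower, with Scube3 at 2.12 CPM at E14.5 and 44.2 CPM at E12.5 (20.8-fold lower, 14.6 to 30.8), Hsd11b2 6.58-fold lower, the motor subunit Dync2h1 3.21-fold lower and Mycn 2.84-fold lower. Sufu, the main cytoplasmic inhibitor of Gli factors, was 2.69-fold lower (2.42 to 3.01). In the libraries labelled mutant 3 of 46 were called higher and 6 lower, against 6.27% and 5.89% of all measured genes (12.2% in either direction). Among the lower ones were Scube3 (3.71-fold), Ift172 (3.16-fold), Hsd11b2 (3.14-fold) and Mycn (2.54-fold). Between fractions, 7 of 46 were called higher and 3 lower in control mesenchyme, against 7.0% and 13.6% of all measured genes (20.6% in either direction). Prdm1 was 9.78-fold higher and the ligand carrier Scube1 4.84-fold higher. Disp2, a relative of the ligand exporter Disp1, had no read in mesenchyme and was at least 47.0-fold lower. In mutant mesenchyme 4 of 44 were called higher and 3 lower, against 5.42% and 12.9% of all measured genes (18.3% in either direction). Scube1 stood at 128 CPM there, against 16.8 CPM in the epithelium labelled mutant (7.59-fold higher, 6.66 to 8.67), and Disp2 was 7.15-fold lower (3.78 to 14.9).

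Promoter windows from RefSeq (GRCm38.p6, the same assembly as mm10) were found for 7 of the 10 genes, namely Ihh, Gli2, Hhip, Cdon, Gli3, Gas1 and Ptch1, and not for Shh, Boc and Gli1. Each window held 250 bases before the start that RefSeq annotates and 50 after it. Those of Cdon, Ptch1 and Gli3 lie inside the gene spans of the GENCODE annotation, so they are not at the outermost annotated start. The GLI consensus GACCACCCA, searched on both strands, was in 0 of the 7 windows and in 0.253% of all 32851 windows, and with at most 1 mismatch in 0 of 7 and 6.74% of all. The PBX-HOX letters TGATTNAT were in 0 of 7 and 3.22% of all, and the MEIS-PKNOX letters TGACAG in 0 of 7 and 19.2% of all. This says only that the letters are not in these windows. The 250 bases before the start are shown for Gli2 (chr1:119053620-119053869, minus strand), called higher in the E12.5 epithelium labelled mutant, and for Hhip (chr8:80058009-80058258, minus strand), called lower in mesenchyme than in epithelium in both genotypes. Capitals mark the 50 bases next to the start, where the general transcription machinery assembles.
Gli2: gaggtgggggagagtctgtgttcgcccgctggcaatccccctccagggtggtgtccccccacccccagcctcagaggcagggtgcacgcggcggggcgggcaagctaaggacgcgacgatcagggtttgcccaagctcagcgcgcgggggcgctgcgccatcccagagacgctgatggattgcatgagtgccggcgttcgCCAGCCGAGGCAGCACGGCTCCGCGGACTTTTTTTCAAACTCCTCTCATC
Hhip: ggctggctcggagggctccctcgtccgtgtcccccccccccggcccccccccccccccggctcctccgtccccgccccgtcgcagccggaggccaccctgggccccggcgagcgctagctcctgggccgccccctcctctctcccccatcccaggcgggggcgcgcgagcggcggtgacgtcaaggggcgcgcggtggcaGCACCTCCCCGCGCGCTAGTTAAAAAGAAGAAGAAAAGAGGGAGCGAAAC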

How the data were processed

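The authors deposited raw counts per gene symbol, 1 table for each of the 6 libraries, which the table names describe as deduplicated. The submitters' processing notes name mm10, Cufflinks 2.2.1 and Cuffdiff 2.2.1; the counting program, its annotation and its strand setting are not given in these sources. Per the labels' protocols, sorted Tomato and GFP fractions were frozen and pooled before RNA was purified. The 5 summary lines of each table were kept out of totals: 4.69% to 8.84% of reads fell on no gene, and multiply aligned reads were 13.7% to 20.1%.

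Counts were scaled to CPM with TMM factors (edgeR 4.0.16, factors 0.941 to 1.047). Ratios carry exact 95% Clopper-Pearson intervals for 2 counts (scipy 1.17.1). A count of 0 was replaced by 3 reads per library for a bound, which leaves out the counting error of the other count. With 1 library per group no comparison has replicates and no p-value is given; a genotype fit over the 3 mutant and control pairs was not run. Gene positions and exon lengths came from GENCODE M21 and sequences from RefSeq. Scripts were tested on simulated data. Alternatives were DESeq2 1.42.0 size factors, plain CPM, scaling without the 50 most abundant genes, thinning, other CPM minimums, a 1.5-fold rule and ratios relative to general epithelial or, added after the data were seen, general mesenchymal genes. The 10 members are described in each comparison; of the wider lists, genes called (all where 5 or fewer, otherwise the 4 largest by the nearer interval bound), beside some chosen after their values were seen. The members and lists were chosen with earlier results of these data known. Part of the mutant genotype label, and its gene, is not reported here.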

Additional observations from a re-analysis of the deposited data

Results flagged for a closer look

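Some Hedgehog genes had genotype ratios in opposite directions in the 2 fractions, and these differences were not tested, since each group is 1 library. For Cdon the log2 ratio of mutant over control was -1.55 in E12.5 mesenchyme and 0.79 in E12.5 epithelium, a difference of -2.35, and against E14.5 epithelium, where it was 1.0, the difference was -2.56. For Gli2 it was -0.27 in E12.5 mesenchyme and 1.5 in E12.5 epithelium, a difference of -1.77. For Boc it was -0.48 in E12.5 mesenchyme and 1.27 in E14.5 epithelium, a difference of -1.75. For Gas1 it was -0.18 in E12.5 mesenchyme and 1.28 in E14.5 epithelium, a difference of -1.46. The general mesenchymal genes had medians of -0.25 in E12.5 mesenchyme, 0.27 in E12.5 epithelium and 1.26 in E14.5 epithelium. Cdon was also on opposite sides in the fraction comparison, with log2 ratios of mesenchyme over epithelium of -1.60 in mutants and 0.75 in controls, a difference of 2.35 for controls minus mutants, which rests on the same 4 libraries as the first of these differences.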

How the results depend on the processing

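With 1 library per group no library could be left out of a comparison, and a paired fit over the 3 mutant and control pairs was not run. The number of Hedgehog genes called moved with the filter on low values and with the fold rule. With no filter it was 3 in place of 1 for mutant over control in mesenchyme, 3 in place of 1 in E12.5 epithelium, 8 in place of 5 in E14.5 epithelium, 5 in place of 2 for mesenchyme over epithelium in mutants and 4 in place of 2 for E14.5 over E12.5 in the epithelium labelled mutant. With a minimum of 20 CPM it was 1 in place of 2 in each of the last 2 comparisons. With a 1.5-fold rule it was 4 in place of 1 in E12.5 epithelium, 5 in place of 2 for E14.5 over E12.5 in the epithelium labelled mutant and 6 in place of 4 for mesenchyme over epithelium in controls. DESeq2 size factors and plain CPM each changed 1 of 58 single-gene calls, and leaving out the 50 most abundant genes or thinning changed none. Plain CPM moved the median of all genes by -0.15 for E14.5 over E12.5 in controls. Ratios relative to the general epithelial genes changed 4 of 34 calls, and those relative to the general mesenchymal genes 10 of 34, with Cdon in E14.5 epithelium turning to -0.26. On these scales 5457 genes were higher and 148 lower in the E14.5 epithelium labelled mutant (epithelial), or 166 higher and 8544 lower (mesenchymal), against 1171 higher and 777 lower with TMM. The cause of these changes was not tested. Shh, Ihh and Gli1 rest on at most 51 reads per library, so their intervals are wide at this depth.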
